A study of Mus musculus with 30 samples.

Results

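The brush border is the carpet of packed microvilli on the luminal face of an absorptive intestinal cell. Each microvillus holds a core of parallel actin filaments bundled by villin and espin, tied to the membrane by myosin motors and ezrin. Protocadherins at the microvillus tips join neighbouring microvilli into an ordered array, held by a scaffold that includes harmonin, and digestive and detoxifying enzymes sit in the membrane around the core. Described here are 9 genes of this structure, chosen by name: Alpi, Clca4a, Cdhr2, Cdhr5, Ush1c, Vil1, Espn, Myo1a and Ezr. They are 9 of the 14475 genes in the deposited table, and all 9 passed the filter on low values in every comparison, Alpi only narrowly in the descending colon.

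The study sequenced RNA from pieces of ascending and descending colon of female mice that carried the same microbiota. It compared control littermates with mutants of mucin-type O-glycan synthesis in the gut epithelium. Mutants were C1galt1 f/f; VillinCre-ERT2; C3GnT-/-, a combination that removes the enzyme of core 1 O-glycans on tamoxifen and lacks the enzyme of core 3 O-glycans throughout (C3GnT, gene symbol B3gnt6). The Cre is driven by the Villin promoter, the promoter of Vil1, so the floxed gene is deleted in epithelial cells and not in the cells beneath them. Mutants in both regions carry the label TM-DKOAsc. The treatment text speaks of mutants induced in either region, and the labels do not settle whether descending epithelium lost the floxed gene. Mutants and wild-type littermates alike were given 0.5 mg tamoxifen a day for 5 days, and analysis followed 5 or 10 days after the last dose; which interval applies to which library is not stated. There were 7 control and 8 mutant libraries in the ascending colon and the same numbers in the descending colon, spread over 3 cages. Cage A (2 controls and 3 mutants per region) is labelled C57BL/6 Background and was 3.4 months old, cage B (3 and 2) is labelled Mixed BL/6-129SvJ and was 2.6 months old, and cage C (2 and 3) has the mixed label and was 3.2 months old, while the protocol gives a mixed background for all mutants and littermates. Cage, age and strain label cannot be told apart. Libraries are named by cage and number, and no label says which ascending and descending libraries came from one mouse, so the p-values measure the spread between these libraries.

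The values are FPKM, fragments scaled by gene length and by the reads mapped in a library, so levels of different genes can be compared per length. Estimated depths ran from 1.43 M to 8.86 M reads, and the 3 shallowest libraries (1.43 M to 1.59 M) were the ascending mutants of cage A. Both targeted genes overlapped between genotypes. B3gnt6 ran from 0.11 through a median of 0.45 to 19.5 FPKM in ascending controls, the last in library B2, and from 0 to 0.53 in ascending mutants, where 5 of 8 were listed at 0. C1galt1 ran from 21.5 to 45.7 and from 18.3 to 34.3 FPKM. All 12 markers of an epithelial reference list were detected, with a summed level of 3228 to 6616 FPKM over the libraries. In all, 3 libraries stood apart. Ascending control B1 had a smooth muscle marker sum of 536 FPKM against a group median of 102, and it was the highest of its group for Clca4a, Ezr, Vil1, Cdhr2, Cdhr5 and Alpi. Its goblet cell marker sum of 3111 FPKM was the lowest of its group, against a median of 9913, with the cage C controls at 3609 and 4399. Descending control A2 and descending mutant C1 had the lowest epithelial sums of their groups (3228 and 3272 FPKM) and the lowest goblet cell sums (3500 and 2691 FPKM). For several results that rest on these libraries, values without them are also given.

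Levels differed widely between the 9 genes. Ordered by mean FPKM, ascending controls ran Cdhr5, Cdhr2, Vil1, Myo1a, Ezr, Clca4a, Ush1c, Alpi and Espn, from 541 ± 63.6 (SD, n = 7) for Cdhr5 to 14.3 ± 2.49 for Espn. Cdhr5 was above Cdhr2, and Cdhr2 above Vil1, in 7 of 7 of these libraries, whereas Clca4a was above Ush1c in 3 of 7, so these neighbours did not differ beyond their spread. In descending controls Ezr led at 302 ± 53.3 FPKM, followed by Cdhr5, Vil1, Myo1a, Cdhr2, Clca4a, Ush1c, Espn and Alpi. There Ezr was above Cdhr5 in 5 of 7 libraries and Myo1a above Cdhr2 in 4 of 7, so those ranks were not separated. Together the 9 genes made up a median of 0.70% of the summed FPKM in ascending controls, 0.79% in ascending mutants, 0.58% in descending controls and 0.60% in descending mutants.

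**Figure D1:**
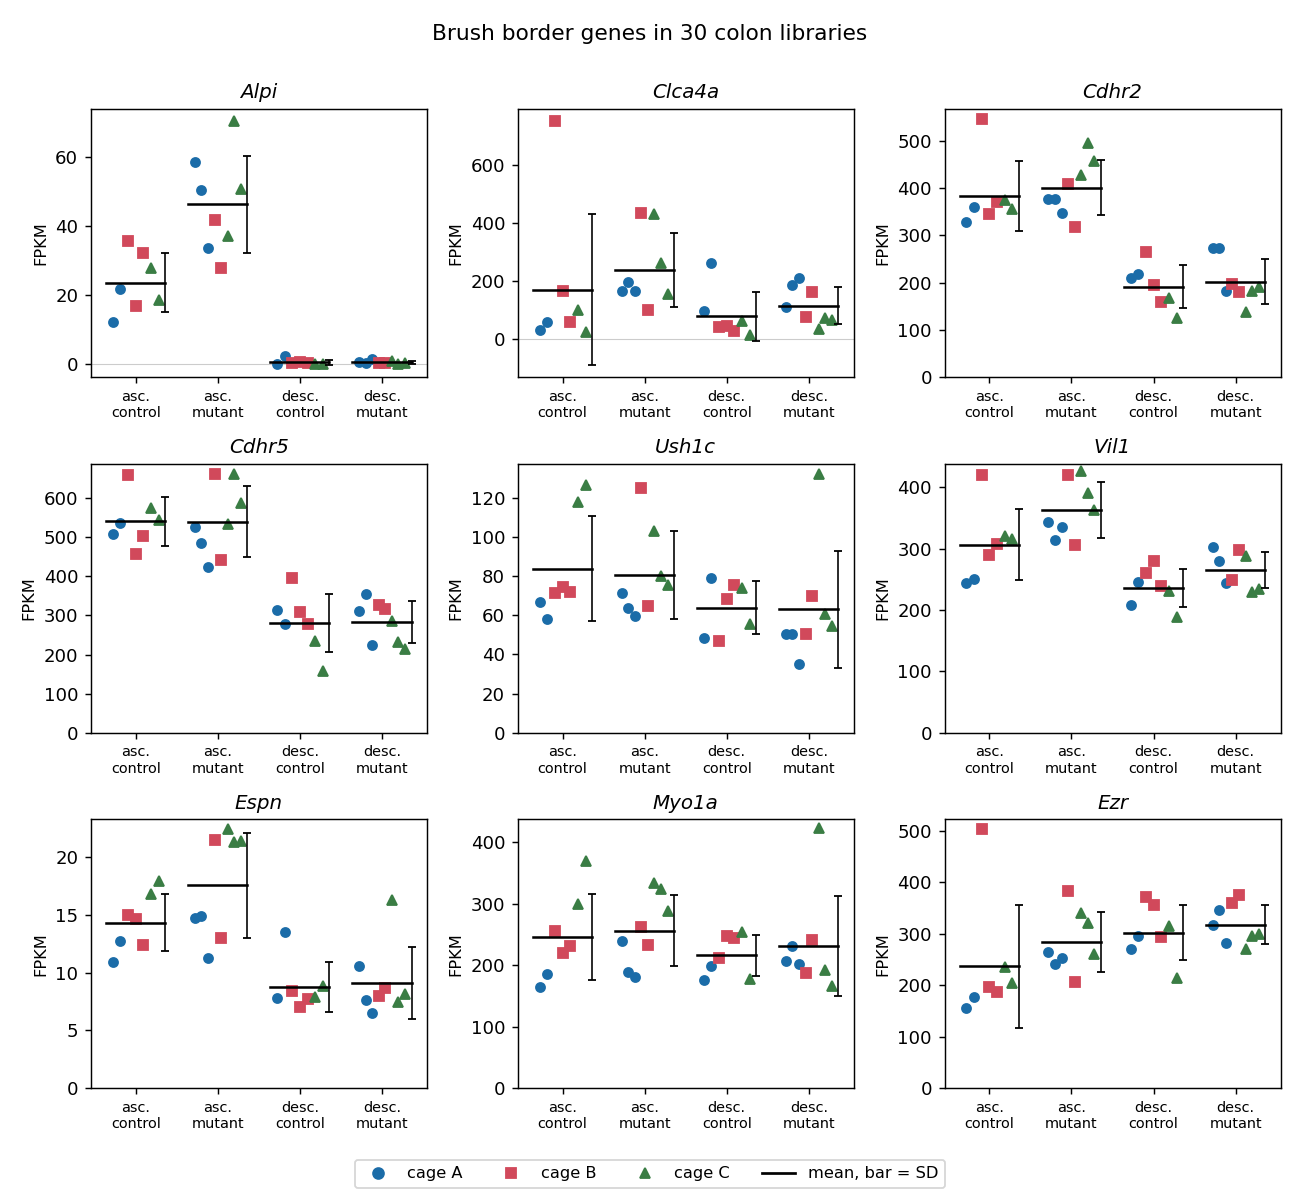
FPKM of each of the 9 genes in all 30 libraries, by region (asc., ascending; desc., descending) and genotype, with marker shape and colour for the cage, a line at the mean and a bar for the SD. Alpi lies between 12.3 and 70.3 in the ascending libraries and between 0 and 2.30 in the descending ones, Cdhr2 and Cdhr5 do not overlap between regions in either genotype, and ascending control B1 is the high point for Clca4a, Cdhr2, Vil1 and Ezr.

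Before the regional values, the sequences just upstream of 4 of these genes are shown, because 3 of them (Alpi, Cdhr2 and Cdhr5) had ranges that did not overlap between regions in either genotype and Ezr was the gene with a negative difference in both. Each is the run of 250 bases before the RefSeq start on GRCm38.p6, printed 5′ to 3′ on the strand of the gene, with capitals for a motif match. RefSeq promoters were matched for 8 of the 9 genes.
Alpi, chr1:87101607-87101856, minus strand: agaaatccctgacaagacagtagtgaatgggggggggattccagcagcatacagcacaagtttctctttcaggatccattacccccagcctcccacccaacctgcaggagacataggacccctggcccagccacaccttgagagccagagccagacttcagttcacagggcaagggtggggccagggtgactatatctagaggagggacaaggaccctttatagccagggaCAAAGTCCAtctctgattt
Cdhr2, chr13:54701213-54701462, plus strand: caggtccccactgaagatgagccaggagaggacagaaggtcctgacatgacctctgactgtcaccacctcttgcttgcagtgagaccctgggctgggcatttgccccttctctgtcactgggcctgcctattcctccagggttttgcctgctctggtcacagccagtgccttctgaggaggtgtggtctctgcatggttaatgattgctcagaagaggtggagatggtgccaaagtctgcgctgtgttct
Cdhr5, chr7:141276787-141277036, minus strand: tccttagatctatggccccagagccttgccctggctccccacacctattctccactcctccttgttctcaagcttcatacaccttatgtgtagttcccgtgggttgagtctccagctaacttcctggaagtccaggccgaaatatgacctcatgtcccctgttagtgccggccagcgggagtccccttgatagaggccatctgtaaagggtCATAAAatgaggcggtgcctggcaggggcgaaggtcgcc
Ezr, chr17:6782781-6783030, minus strand: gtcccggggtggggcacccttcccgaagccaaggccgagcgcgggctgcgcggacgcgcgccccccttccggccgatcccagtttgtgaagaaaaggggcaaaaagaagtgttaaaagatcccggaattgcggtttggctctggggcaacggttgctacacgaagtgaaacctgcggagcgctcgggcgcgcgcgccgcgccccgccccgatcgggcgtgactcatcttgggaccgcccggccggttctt
Letters of 3 kinds of regulator of intestinal epithelial genes were searched on both strands. The HNF4 motif CAAAGTCCA was found in the Alpi window, starting 19 bases before the gene, and in 0.384% of 32851 mouse promoter windows of that length. A Cdx motif, TTTATG, was found as its reverse complement in the Cdhr5 window, starting 39 bases before the gene, and upstream of 1 of the 3 starts of Espn, against 10.8% of all windows. The GATA motif AGATAA (9.99% of windows) was in none of the 10 windows of these genes, and the Cdhr2 and Ezr windows held none of the 3 motifs. Letters matched in such a window are a description and not evidence of binding. GC content was 54.4% for Alpi, 56% for Cdhr2, 55.6% for Cdhr5 and 67.2% for Ezr, against a median of 52.4% over all windows.

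Brush border genes were mostly higher in the ascending colon. In controls 5 of the 9 rose from descending to ascending colon past an adjusted p of 0.05 (limma, Benjamini-Hochberg over all 12515 genes tested) and none fell, where 37.9% of all genes passed, 12.8% higher and 25.1% lower. In mutants, which share no library with the controls, 6 of 9 passed and all were higher, against 44% of 12203 genes, with 14.3% higher and 29.7% lower. The median log2 difference of the 9 genes was 0.66 in controls and 0.88 in mutants, beside -0.14 and -0.16 over all genes. With median-of-ratios scaling those medians over all genes moved to -0.01 and -0.03. The split of all calls in controls then moved from 1598 higher and 3146 lower to 2153 and 1884, and in mutants from 1748 and 3620 to 2330 and 2278. Quantile normalization gave 1940 and 2262 in controls and 2080 and 2302 in mutants. No brush border gene changed direction between regions under any scaling. In pieces of tissue, fewer cells of a type and less RNA per cell cannot be told apart.

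Alpi (ENSMUSG00000079440.2, minus strand of chromosome 1, 87098002 to 87101606, GRCm38) encodes the intestinal alkaline phosphatase, a membrane-anchored enzyme that dephosphorylates bacterial lipopolysaccharide and nucleotides. In controls its lowest, median and highest values were 12.3, 21.7 and 35.5 FPKM in the ascending colon and 0, 0.18 and 2.30 in the descending colon. Mutants had 27.7, 46.0 and 70.3 FPKM in the ascending colon and 0, 0.34 and 1.58 in the descending colon. Every ascending library was above every descending one, and Alpi was listed at 0 in descending controls A1 and C2 and descending mutant C2. On the scale of log2(FPKM + 1) the difference was 4.10 ± 0.28 (SE; adjusted p = 3.60e-07) in controls and 4.95 ± 0.19 (adjusted p = 3.44e-12) in mutants, the largest of the 9 genes in both. The added 1 compresses such a difference: group means of FPKM were 48.3 times as high in the ascending colon in controls and 88.1 times in mutants. Without descending control A2, the highest of its group, the ratio in controls was 126. With an estimated 0.048 to 0.136 FPKM per read, descending values rested on an estimated 26 reads at most in 1 library. By position, 2.40% of the 50-base windows of Alpi are also found in Akp-ps1, Akp3 or Alppl2, so few of its reads are ambiguous.

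Clca4a (ENSMUSG00000068547.6, minus strand of chromosome 3, 144952480 to 144975045) belongs to the family of calcium-activated chloride channel regulators and was the most variable of the 9 genes. Controls had 25.1, 60.6 and 753 FPKM (lowest, median and highest) in the ascending colon and 15.8, 46.6 and 263 in the descending colon. Mutants had 99.5, 183 and 436 in the ascending colon and 36.1, 93.5 and 212 in the descending colon. The regions overlapped in both genotypes, and the 2 highest control values were those of B1 and A2, the control libraries that stood apart. The difference was 0.66 ± 0.69 (adjusted p = 0.474) in controls, with a 95% interval from -0.81 to 2.13, and 1.09 ± 0.37 (adjusted p = 0.0236) in mutants. The control difference was 0.14 without B1 (adjusted p = 0.866), 1.07 without A2 (adjusted p = 0.191) and 0.54 without both (adjusted p = 0.395). The mutant call was lost without ascending mutant B1, C1 or C2 (highest adjusted p 0.0510) and without cage C (0.43, adjusted p = 0.427), and in controls the sign turned without cage B (-0.59, adjusted p = 0.606). Values for Clca4a are uncertain because 41.0% of its 50-base windows also occur in Clca4b, Clca4c-ps or Gm16233, and the rule of the authors' counting for such reads was not given in the sources used here.

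The genes of the links between microvillus tips showed a regional difference close to 1 on the log2 scale for both cadherins. Cdhr2 (ENSMUSG00000034918.8, plus strand of chromosome 13, 54701461 to 54736662) and Cdhr5 (ENSMUSG00000025497.15, minus strand of chromosome 7, 141269083 to 141276786) encode protocadherins that bind each other across the gap. Cdhr2 ran from 329 through 360.5 to 547 FPKM in ascending controls and from 125 through 195 to 265 in descending controls. Its difference was 1.01 ± 0.16 in controls (adjusted p = 3.05e-04) and 1.00 ± 0.15 in mutants (adjusted p = 5.85e-05), with ranges apart in both genotypes. Cdhr5 ran from 458 through 537 to 658 FPKM in ascending controls and from 158 through 277 to 397 in descending controls. For Cdhr5 the difference was 0.98 ± 0.17 in controls (adjusted p = 6.72e-04) and 0.93 ± 0.15 in mutants (adjusted p = 1.27e-04), again with ranges apart in both. Means of Cdhr2 were 2.0 times as high in the ascending colon in controls and 1.98 times in mutants, and those of Cdhr5 were 1.93 and 1.91 times as high.

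Ush1c (ENSMUSG00000030838.18, minus strand of chromosome 7, 46195350 to 46238503) encodes harmonin, the scaffold that binds the tails of both cadherins. It ran from 58.1 through 71.9 to 126 FPKM in ascending controls and from 46.8 through 68.3 to 79.1 in descending controls, and from 59.7 through 73.5 to 125 and from 35.2 through 52.6 to 132 in mutants. The regions overlapped in both genotypes. Its difference of 0.36 ± 0.16 in controls (adjusted p = 0.1005) and 0.41 ± 0.19 in mutants (adjusted p = 0.0867) did not pass, though the control difference passed without descending control A2 (adjusted p = 0.0178) and the mutant difference without descending mutant C1 (0.56, adjusted p = 0.00335). Both also passed with median-of-ratios scaling (0.52, adjusted p = 0.0249, and 0.56, adjusted p = 0.0329).

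**Figure D2:**
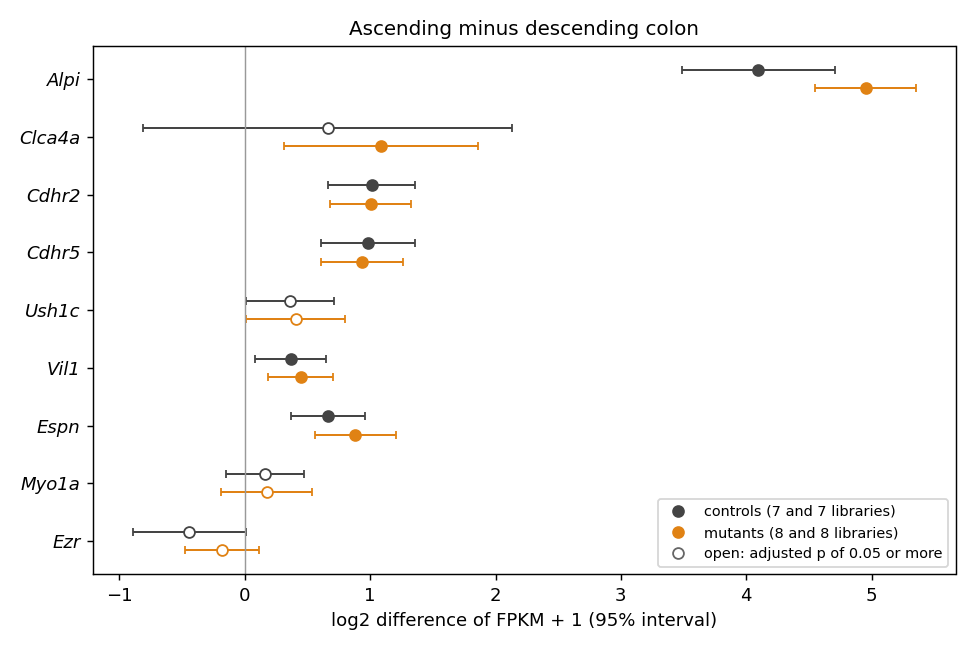
Difference in log2(FPKM + 1) between ascending and descending colon for each gene, with 95% intervals, in controls (7 and 7 libraries) and mutants (8 and 8), filled where the adjusted p is under 0.05. Alpi stands at 4.10 and 4.95, Cdhr2 and Cdhr5 lie between 0.93 and 1.01, and Ezr is the gene below 0 in both genotypes.

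Of the genes of the actin core, Espn and Vil1 were higher in the ascending colon and Myo1a and Ezr did not pass. Espn (ENSMUSG00000028943.18, minus strand of chromosome 4, 152120331 to 152152371) encodes espin, which bundles actin filaments. It ran from 10.9 through 14.6 to 17.9 FPKM in ascending controls and from 7.01 through 7.86 to 13.5 in descending controls, where A2 was the high value that made the groups overlap. The difference was 0.67 ± 0.14 in controls (adjusted p = 0.00205) and 0.88 ± 0.15 in mutants (adjusted p = 2.21e-04), and the control call was lost without cage B (0.58, adjusted p = 0.103).

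Vil1 (ENSMUSG00000026175.12, plus strand of chromosome 1, 74409376 to 74435559) encodes villin, which bundles and severs actin filaments. It ran from 244 through 307 to 419.8 FPKM in ascending controls and from 189 through 238 to 279.9 in descending controls. In mutants the ranges were apart, from 306 through 353 to 426 FPKM in the ascending colon and from 229.9 through 264 to 302 in the descending colon. Its difference was small, 0.36 ± 0.13 in controls (adjusted p = 0.0411) and 0.45 ± 0.12 in mutants (adjusted p = 0.00763). The control call was lost in 11 of 14 fits that left out 1 library, where the difference stayed between 0.30 and 0.42 and the adjusted p reached 0.0887, and both calls were lost after scaling to the epithelial reference list (0.32, adjusted p = 0.116, and 0.33, adjusted p = 0.0591) and with quantile normalization (0.32, adjusted p = 0.0993, and 0.35, adjusted p = 0.0843). The control call was also lost with no filter on low values (adjusted p = 0.0538), with no cage covariate (0.0559) and without cage B (0.224), and both were lost without cage C (0.27, adjusted p = 0.269, and 0.32, adjusted p = 0.0886).

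Myo1a (ENSMUSG00000025401.9, plus strand of chromosome 10, 127705170 to 127720940) encodes the class I myosin that ties the core to the membrane. It ran from 164 through 232 to 370.1 FPKM in ascending controls and from 176 through 212 to 254 in descending controls, with differences of 0.16 ± 0.14 (95% interval from -0.15 to 0.47) in controls and 0.17 ± 0.17 (from -0.19 to 0.54) in mutants. Over fits that left out 1 library the mutant difference of Myo1a ran from 0.07 to 0.29, and the lowest adjusted p was 0.0909. Ezr (ENSMUSG00000052397.8, minus strand of chromosome 17, 6738041 to 6782784) encodes ezrin, which links membrane proteins to the actin beneath them. Its values were 155, 197 and 503 FPKM in ascending controls and 213, 296 and 372 in descending controls, and 6 of the 7 ascending controls lay below the descending median. The difference of -0.44 ± 0.21 in controls did not pass (adjusted p = 0.114). It passed without ascending control B1 (-0.62, adjusted p = 0.00497), with quantile normalization (-0.56, adjusted p = 0.0366), with array quality weights (-0.61, adjusted p = 0.00259) and in 1 fit of all 30 libraries (-0.44, adjusted p = 0.0467), and in mutants it was -0.18 ± 0.14 (adjusted p = 0.312). Leaving out B1 and A2 together gave 7 of 9 genes past the threshold in controls, 6 of them higher and Ezr lower (-0.59, adjusted p = 0.00557), against 43% of all genes. These libraries stood apart in part by their values for the same genes, so the larger count may follow in part from that choice.

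Ranges apart were seen for Alpi, Cdhr2 and Cdhr5 in controls and for these and Vil1 in mutants, all higher in the ascending colon. Over all genes, ranges were apart and higher for 3.83% in controls and 5.62% in mutants. Markers of other cells and states moved with region as well. T cell markers had 8 of 8 tested members higher in the ascending colon in controls, with summed levels of 16.4 to 74.5 FPKM against 1.43 to 4.40, and all 10 proliferation markers were lower, with sums of 33.1 to 84.3 against 90.3 to 148. The 13 smooth muscle markers had a median difference of -1.31 in controls, with 1 higher and 2 lower past the threshold, and 12 of 13 were lower in mutants. Of the 12 epithelial reference genes, 1 was higher and none lower in controls, and 3 were higher and 2 lower in mutants. Of 10 goblet cell markers 3 were higher and 1 lower in controls, and 3 higher and 4 lower in mutants. Goblet sums in controls had medians of 9913 FPKM in ascending and 4671 in descending colon, with overlapping ranges. No fibroblast or macrophage marker was higher past the threshold. Lower were 0 and 2 in controls and 6 and 3 in mutants. Over all genes 12.8% passed as higher and 25.1% as lower in controls, and 14.3% and 29.7% in mutants. The part of these cells in the regional differences was not tested. After scaling each library to the epithelial reference list Alpi, Cdhr2, Cdhr5 and Espn passed in both genotypes. Under that scaling 4 of the 9 passed in controls and 5 in mutants, against 25% and 42.8% of all genes. Of those calls over all genes 35.5% and 25.3% were higher.

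Other microvillus genes moved in both directions along the colon. Of 27 tested in controls 8 were higher and 6 lower in the ascending colon, against 12.8% and 25.1% of all genes. Of 26 in mutants 10 were higher and 7 lower, against 14.3% and 29.7%. The lower counts were close to the shares over all genes. Medians were 0.17 in controls and 0.20 in mutants. Rdx, which encodes radixin, a relative of ezrin, showed the largest difference: 1.44 ± 0.43 FPKM in ascending and 14.2 ± 5.50 in descending controls (-2.49 ± 0.31, adjusted p = 3.94e-05), and -3.06 ± 0.18 in mutants. Myo7b, the motor that carries the tip cadherins, was 127 ± 27.0 and 66.9 ± 10.7 FPKM in controls (0.90 ± 0.13, adjusted p = 1.27e-04), and 0.84 ± 0.12 in mutants. Lower in the ascending colon in both genotypes were Sptan1, the alpha spectrin of the membrane skeleton (-0.41 ± 0.08 and -0.50 ± 0.08), and Lima1, an actin-binding protein (-0.61 ± 0.13 and -0.68 ± 0.08).

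Other enzymes and surface proteins of the brush border leaned to the ascending colon, with 8 higher and 1 lower of 17 tested in controls and 9 higher and 2 lower of 16 in mutants, and medians of 1.02 and 1.12. Shares over all genes were 12.8% higher and 25.1% lower in controls, and 14.3% and 29.7% in mutants. Ceacam1, a membrane glycoprotein of the brush border, was the most abundant of those named, at 953 ± 181 FPKM in ascending and 309 ± 50.8 in descending controls (1.61 ± 0.16, adjusted p = 4.97e-06). Sis, the sucrase-isomaltase of the small intestine, was low but followed the same order, 7.08 ± 4.79 and 0.019 ± 0.023 FPKM in controls (2.63 ± 0.42, adjusted p = 2.86e-04). Amn and Cubn, which form the receptor for intrinsic factor and vitamin B12, were 8.95 ± 3.94 and 4.51 ± 2.92 FPKM in ascending controls and 0.67 ± 0.46 and 0.043 ± 0.019 in descending controls. In mutants Amn (2.96 ± 0.14), Cubn (2.08 ± 0.12), Sis (2.42 ± 0.12) and Ggt1, a gamma-glutamyl transferase (2.79 ± 0.14), were higher. Ace, the angiotensin-converting enzyme, went the other way in controls (-2.03 ± 0.31, adjusted p = 2.14e-04).

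Most relatives of Clca4a were lower in the ascending colon, 4 of 5 tested past the threshold in each genotype. In controls they were Clca1, a goblet cell product, at 273 ± 146 FPKM against 581 ± 252 (-1.12 ± 0.40, adjusted p = 0.0408), Clca3b (-1.57 ± 0.35), Clca3a2 (-1.40 ± 0.48) and Clca3a1 (-0.92 ± 0.32). The remaining gene was above 0 in controls (0.16) and not called, and in mutants all 5 were below 0, the closest at -0.57. Transcription factors known to drive enterocyte genes had 1 higher and 1 lower of 11 tested in each genotype. Beside both lists, 12.8% of all genes were higher and 25.1% lower in controls, and 14.3% and 29.7% in mutants. Cdx2 was 145 ± 24.5 FPKM in ascending and 18.9 ± 24.6 in descending controls (3.52 ± 0.46, adjusted p = 5.82e-05), and 166 ± 24.5 and 18.7 ± 13.5 in mutants. Klf5 was lower in the ascending colon in both genotypes (-0.57 ± 0.15 and -0.60 ± 0.10).

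**Figure D3:**
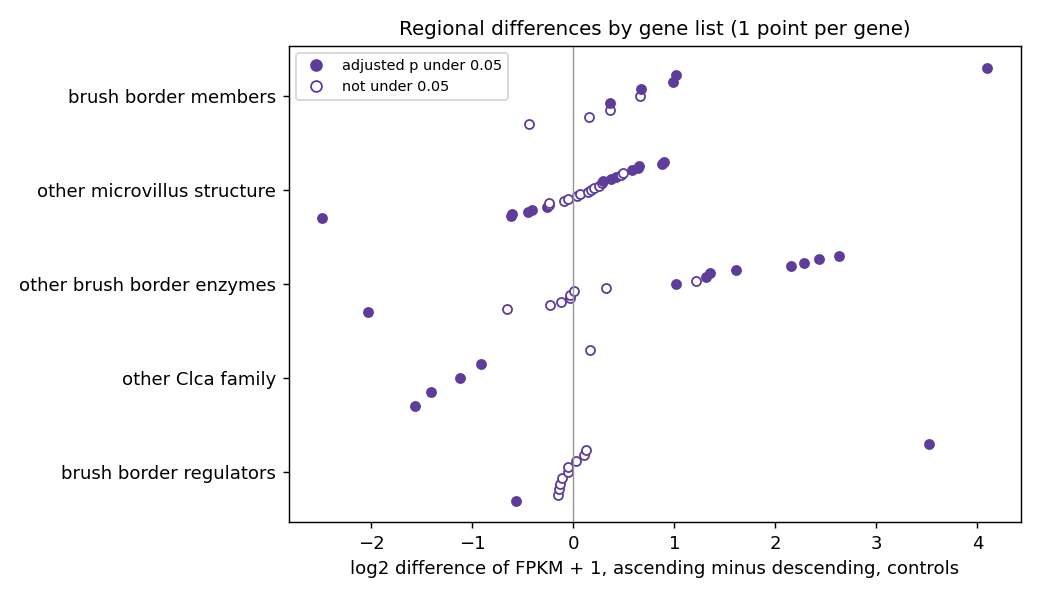
Difference in log2(FPKM + 1) between ascending and descending colon in controls, 1 point per tested gene in 5 gene lists, filled where the adjusted p is under 0.05. Alpi is the rightmost brush border gene at 4.10, Cdx2 the rightmost regulator at 3.52, and the 4 filled points of the Clca family lie between -0.92 and -1.57.

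Between genotypes no brush border gene passed the threshold in either region. In the ascending colon, where 0 of 12178 genes passed with limma, 4 of the 9 had an unadjusted p under 0.05 (Alpi, Clca4a, Vil1 and Espn), all higher in mutants, against 11.5% of all genes, 3.46% of them higher. Differences were above 0 for 7 of the 9 genes and for 38.7% of all genes, and their medians were 0.25 and -0.05. This comparison shares the ascending controls with the regional one.

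Alpi had the smallest p of the 9 genes. Mean FPKM was 23.6 ± 8.50 (SD, n = 7) in ascending controls and 46.2 ± 14.04 (n = 8) in ascending mutants, a ratio of 1.96. All 8 mutants were above the control median of 21.7, and 6 of 8 were above the highest control at 35.5. The log2 difference was 0.97 ± 0.23 (adjusted p = 0.214). Clca4a, by contrast, had means of 171 ± 261 and 240 ± 128 FPKM but medians of 60.6 and 183, a difference of 1.47 ± 0.54 (adjusted p = 0.345), and all 8 mutants were above the control median while control B1 at 753 FPKM was above every mutant.

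Ezr averaged 237 ± 120 FPKM over the controls and 284 ± 58.8 over the mutants (0.39 ± 0.20, adjusted p = 0.471), and all 8 mutants were above the control median of 197. Vil1 was 306 ± 58.4 and 362 ± 45.7 FPKM (0.28 ± 0.11, adjusted p = 0.386), and Espn 14.3 ± 2.49 and 17.6 ± 4.53 (0.25 ± 0.11, adjusted p = 0.396). The adhesion genes and Myo1a were near 0. Cdhr5 was 541 ± 63.6 and 540.3 ± 91.1 FPKM, a difference of -0.01 with a 95% interval from -0.28 to 0.26. The other 3 were 0.08 for Cdhr2 (from -0.20 to 0.35), 0.07 for Myo1a (from -0.15 to 0.28) and -0.05 for Ush1c (from -0.37 to 0.27), intervals that reach to both sides of 0.

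**Figure D4:**
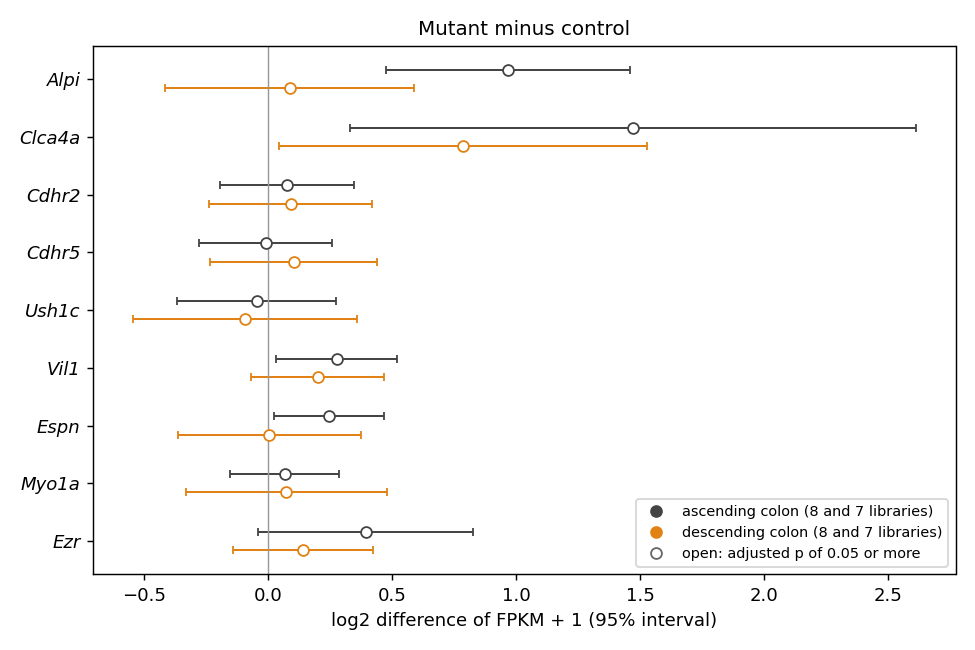
Difference in log2(FPKM + 1) between mutants and controls for each gene with 95% intervals, in the ascending and the descending colon (8 mutant and 7 control libraries each). All points are open because no adjusted p was under 0.05; Alpi (0.97) and Clca4a (1.47) lie farthest to the right in the ascending colon.

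The ascending differences were uneven between cages. Alpi had a mutant minus control difference of 1.44 in cage A, 0.33 in cage B and 1.13 in cage C, and Clca4a 1.99, 0.08 and 2.35. Ezr showed 0.61, 0.09 and 0.48, and Vil1 0.42, 0.10 and 0.30. For these 4 genes every mutant was above every control in cages A and C, while the genotypes overlapped in cage B, which holds ascending control B1. With 2 controls and 3 mutants in a cage such separation is easily reached, and its share over all genes was not counted. A moderated F test of whether the genotype difference depended on cage passed for none of the 9 genes in the ascending colon (lowest adjusted p 0.498, Ush1c) or the descending colon, so the cages were not shown to differ; over all genes 0 of 12178 (0%) and 1 of 12219 (0.00818%) passed. Without cage B, 4 of the 9 genes passed, all higher in mutants, against 5.38% of all genes, 2.14% of them higher. They were Alpi (1.29 ± 0.22, adjusted p = 0.0219), Clca4a (2.17 ± 0.36, adjusted p = 0.0172), Ezr (0.54 ± 0.11, adjusted p = 0.0254) and Vil1 (0.36 ± 0.09, adjusted p = 0.0476). With array quality weights, which give less weight to libraries that fit the model poorly, Alpi (1.096, adjusted p = 0.0272) and Clca4a (1.71, adjusted p = 0.0400) passed, against 6.13% of all genes, 2.36% of them higher. Without cage A and without cage C none of the 9 genes and 0% of all genes passed (Alpi adjusted p = 0.981 and 0.600). Without ascending control B1 none of the 9 passed, and 1 of 12149 genes did. Alpi was then 1.06 (adjusted p = 0.0962), Clca4a 1.84 (0.0965), Ezr 0.55 (0.101) and Vil1 0.33 (0.137).

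**Figure D5:**
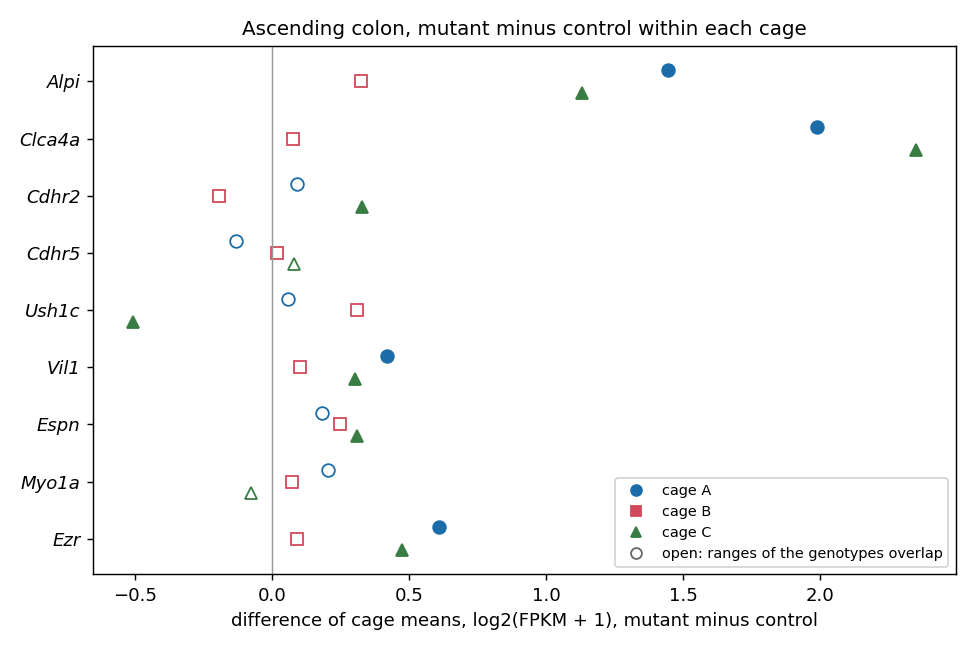
Difference of cage means in log2(FPKM + 1) between ascending mutants and controls within each of the 3 cages, filled where every mutant lay on one side of every control. Alpi, Clca4a, Vil1 and Ezr are filled and above 0 in cages A and C and open in cage B, between 0.08 and 0.33, and Ush1c in cage C is the filled point below 0, at -0.51.

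Summed levels of markers of other tissue layers and states overlapped between the ascending groups, and no such marker passed the threshold. Markers of other layers leaned lower in mutants. These were 13 of 13 for smooth muscle (median -1.03) and 13 of 14 for fibroblasts and matrix (-0.78). So were 7 of 7 tested for macrophages, 8 of 8 for T cells and 3 of 3 for neurons and glia. In that order 3, 10, 4, 2 and 3 were lower at an unadjusted p under 0.05. Of all genes 11.5% had such a p, 3.46% being higher in mutants and the rest lower, and 38.7% had a difference above 0. Of 12 epithelial reference genes 9 were higher and 3 lower, and of 10 goblet cell markers 6 were higher and 4 lower. Smooth muscle sums ran from 41.4 through 102 to 536 FPKM in controls and from 30.9 through 49.0 to 89.8 in mutants, and sums of 14 fibroblast and matrix markers from 68.3 through 85.1 to 176 and from 21.7 through 43.2 to 86.6. Macrophage markers summed to 32.3 to 214 FPKM in controls and 18.2 to 82.2 in mutants, T cell markers to 16.4 to 74.5 and 11.3 to 47.8, and markers of enteric neurons and glia to 2.32 to 11.3 and 0.86 to 4.16. Epithelial reference sums were 3821 to 6028 FPKM in controls and 4757 to 6276 in mutants. All 10 proliferation markers had an ascending difference above 0, toward mutants, with a median of 0.46, 9 of them at an unadjusted p under 0.05 and none past the threshold (lowest adjusted p 0.214), and sums of 33.1 to 84.3 FPKM in controls and 49.7 to 129 in mutants. Their descending differences were above 0 for 10 of 10, at a median of 0.31, with 3 at an unadjusted p under 0.05, against 2.19% of all genes. The part of these markers in the genotype differences was not tested. After scaling to the epithelial reference list Alpi kept a difference of 0.83 (adjusted p = 0.121) and Clca4a 1.33, while Vil1 was at 0.13, Ezr at 0.25 and Espn at 0.11. The 3 shallow libraries of cage A are all mutants, and without cage A the difference of Alpi was 0.73 ± 0.27 (adjusted p = 0.981).

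In the descending colon 0 of 12219 genes passed and 1 of the 9 had an unadjusted p under 0.05, against 2.19% of all genes. That gene was Clca4a, averaging 79.3 ± 84.8 FPKM over controls and 116 ± 63.7 over mutants (0.79 ± 0.35, adjusted p = 0.999). Alpi, near the detection limit here, was 0.09 ± 0.24, and Vil1 was 236 ± 30.6 and 265 ± 29.6 FPKM (0.20 ± 0.13). The other 6 genes were between -0.09 for Ush1c and 0.14 for Ezr. The median of the 9 genes was 0.09 beside -0.04 over all genes.

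Whether the genotype difference itself differed between regions was tested with an interaction term. None of the 9 genes and none of 12353 genes passed, and 1 of the 9 had an unadjusted p under 0.05, against 1.6% of all genes. It was Alpi, with a genotype difference larger in the ascending colon by 0.88 ± 0.35 on the log2 scale (95% interval from 0.17 to 1.59, adjusted p = 1.00). With 0.1 added to FPKM in place of 1, the Alpi term was 0.41 ± 0.71, from genotype differences of 0.998 in the ascending and 0.59 in the descending colon, where its values are close to 0. For Clca4a the term was 0.69 ± 0.69 and for Ezr 0.25 ± 0.24.

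No member of the related lists passed between genotypes. The smallest p in the ascending colon belonged to Msn, which encodes moesin, another relative of ezrin, averaging 4.25 ± 1.21 FPKM over controls and 1.83 ± 0.79 over mutants (-0.86 ± 0.17, adjusted p = 0.214), and to Fscn1, an actin bundler, at 0.90 ± 0.49 and 0.27 ± 0.27. Anpep, an aminopeptidase, was 5.16 ± 6.00 and 1.43 ± 0.45 FPKM (-0.94 ± 0.33, adjusted p = 0.338), and Mgam, maltase-glucoamylase, 60.9 ± 9.17 and 73.9 ± 11.9 (0.25 ± 0.10, adjusted p = 0.380). Among the regulators Cdx2 was 0.21 ± 0.13 and Elf3 -0.17 ± 0.12, and in the Clca family Clca3b was 0.30 ± 0.30 and Clca3a1 0.10 ± 0.18. In the descending colon the named genes of these lists (Sptan1, Capzb, Dpp4, Mgam, Clca3a1, Clca3a2, Elf3 and Hnf4a) lay between -0.45 for Clca3a2 and 0.18 for Mgam. Over all tested members of these lists the descending differences ran from -0.54, for Msn, to 1.07, for Clca4b, which shares sequence with Clca4a.

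Across the 15 libraries of a region the 9 genes varied in part together. Each was standardized and averaged into 1 profile, which Vil1 followed most closely (Pearson r 0.94 in ascending and 0.88 in descending libraries) and Ush1c least (0.56 and 0.37), each gene being part of the profile. Of 10729 other genes, those most like the profile in both regions were Myh14, a non-muscle myosin heavy chain (r 0.91 and 0.89, mean 226 and 187 FPKM in the ascending and descending colon), Lasp1, an actin-binding protein (0.84 and 0.84), Ptprh, a receptor tyrosine phosphatase (0.83 and 0.89), Rnf10, a ring finger protein (0.83 and 0.82), and Pdlim2, a PDZ and LIM domain protein (0.91 and 0.81). The points share library depth, tissue makeup, cage and genotype, so these correlations are descriptions of the 15 libraries of each region.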

How the data were processed

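RNA from 30 pieces of mouse colon was depleted of ribosomal RNA and sequenced as single reads of 50 bases, per the labels' protocols. The authors deposited 1 table of FPKM per gene and library; the submitters' processing notes name bcl2fastq 2.17, STAR, DESeq2 and GRCm38/mm10. Counter, annotation and gene lengths behind the FPKM were not given in the sources used here. Positions came from GENCODE M21 (GRCm38), which held 14472 of 14475 gene identifiers. Tests were run on log2(FPKM + 1) with limma 3.58.1 in R 4.3.3 (eBayes with a trend, two-sided, Benjamini-Hochberg over all genes averaging 0.5 FPKM or more, threshold 0.05), with cage as covariate. A fold change on this scale understates the change of low genes.

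The table gives no read counts. Depth was estimated from the steps between low FPKM values, of which 73.8% to 84.8% per library lay within 0.2 of a whole number of reads, and no count test was run. No pair of libraries held the same values. The fits were also run on simulated data with independent noise. That simulation held no cage effects or outlying libraries, so it cannot show how these affect the calls. The genes and lists were chosen with earlier results of these data known. Named genes are the 9 brush border genes, up to 4 per related list with the smallest adjusted p in each comparison of regions and up to 2 in each comparison of genotypes, and the 5 genes most like the 9. Some members of the list of regulators are not reported here. Motif windows are the 250 bases before each RefSeq start (GRCm38.p6). Alternatives covered the pseudocount (0.1), the filter (none or 2 FPKM), scaling, weights, covariates, a replicate block and leaving out cages and libraries.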

Additional observations from a re-analysis of the deposited data

Results flagged for a closer look

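Within each region and genotype, the highest and lowest library of each gene was compared with its nearest neighbour by Dixon's criterion at the 95% level, which chance alone passes in about 1 group in 20. Of 36 groups 10 had such a value, all of them highest values and all in 3 libraries.

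Ascending control B1 stood above the rest of its group for Clca4a (753 FPKM, next 168), Cdhr2 (547, next 375), Ezr (503, next 236) and Vil1 (419.8, next 319.6). Descending control A2 stood above its group for Clca4a (263, next 95.8), Espn (13.5, next 8.87) and Alpi (2.30, next 0.54). Descending mutant C1 did so for Myo1a (424, next 240.3), Ush1c (132, next 69.8) and Espn (16.3, next 10.5). B1 had the highest smooth muscle sum of the ascending controls (536 FPKM), A2 the highest macrophage sum (199) and the lowest epithelial sum (3228) of the descending controls, and C1 the lowest epithelial sum (3272) of the descending mutants. Goblet cell sums of all 3 were the lowest of their groups (3111, 3500 and 2691 FPKM). Their part in these values was not tested.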

How the results depend on the processing

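Alpi, Cdhr2 and Cdhr5 kept their regional calls in both genotypes under every alternative run. The count of brush border genes called between regions in controls was 5, and 3 without cage B (2069 calls over all genes, against 4744; 2567 without cage C and 3147 with epithelial scaling). It was 4 with no filter on low values (4951), with no cage covariate (4459), with epithelial scaling and without cage C. The count was 6 with median-of-ratios scaling (4037 over all genes), in 1 fit of all libraries (4885) and without cage A (4582). It was 7 with array quality weights (6232) and without B1 and A2 (5348). In mutants it was 7 with median-of-ratios scaling (4608) and with array quality weights (6540). There it was 5 with quantile normalization (4382), with epithelial scaling (5221) and in 1 fit of all libraries (5616). In mutants, without cage C, 5 of the 9 and 3528 of all genes were called, against 6 and 5368; Vil1 (0.32, adjusted p = 0.0886) and Clca4a (0.43, adjusted p = 0.427) were lost and Ush1c gained (0.55, adjusted p = 0.0419). Leaving out 1 library gave 4 to 6 in controls and 5 to 7 in mutants. In the ascending comparison of genotypes the count was 0, but 2 with array quality weights (746 calls over all genes) and 4 without cage B (652). Fitting all 30 libraries at once called 3 genes in all and leaving out ascending mutant B1 170, with none of the 9 among them. The numbers in the titles were not taken to pair libraries across regions: of 15 same-numbered pairs 4 had a correlation of deviations over 0.1, and these 4 correlated best with their own number. They were mutants C1, C2 and C3 (0.36, 0.27 and 0.18) and mutant A1 (0.13). Where a cage held 2 libraries of a genotype, both pairs had the same value (-0.071 for controls A, -0.26 for mutants B and -0.16 for controls C). The 15 pairs are thus not 15 separate checks, and they cannot settle whether the numbers pair mice. With the number as a replicate block, Vil1 was lost in controls (0.36, adjusted p = 0.0741) and Clca4a in mutants (1.09, adjusted p = 0.0509), so 4 and 5 genes were called.

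Signs turned for differences that were not called, most of them near 0, and the cause was not tested. In the ascending comparison of genotypes Cdhr5 turned with median-of-ratios scaling (0.037), 1 fit of all 30 libraries (0.022), without cage A (0.050), without B1 and A2 (0.032) and with the replicate block (0.0064). Cdhr2 turned with quantile normalization (-0.080), epithelial scaling (-0.070) and without cage C (-0.051), Myo1a with quantile normalization (-0.076), epithelial scaling (-0.080) and without cage A (-0.0034), and Ush1c without cage C (0.18). In the descending comparison Ezr turned with quantile normalization (-0.00032). Epithelial scaling turned Cdhr2 (-0.0033), Myo1a (-0.022) and Espn (-0.080), and array quality weights turned Myo1a (-0.099). Ush1c turned without cage A (0.086), without A2 (0.040) and with the replicate block (0.086), Espn without cage B (-0.043) and C (-0.11), Alpi without cage C (-0.015) and with the replicate block (-0.030), and Cdhr5 without cage C (-0.011). Between regions in controls Clca4a turned from 0.66 to -0.59 without cage B and Myo1a without cage C (-0.037). In the interaction Myo1a turned with array quality weights (0.17), no cage covariate (0.015), 1 fit of all libraries (0.015), without cage C (0.12) and without B1 and A2 (0.0082). Ush1c turned with epithelial scaling (-0.0063), without cage A (-0.19), without cage B (-0.12) and without B1 and A2 (-0.11), and Cdhr2 without cage A (0.0096), without cage B (0.025) and without B1 and A2 (0.063).

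Leaving out 1 library turned signs as well. In the ascending comparison of genotypes Cdhr5 ran from -0.084 to 0.055 and Ush1c from -0.21 to 0.030. In the descending one Alpi ran from -0.099 to 0.17, Myo1a from -0.056 to 0.15, Espn from -0.11 to 0.14 and Ush1c from -0.23 to 0.040. In the interaction Cdhr2 ran from -0.082 to 0.067, Myo1a from -0.080 to 0.12 and Ush1c from -0.12 to 0.18. Alpi in the descending colon lies near the filter, and fits in which it fell below it gave no value. Depth is estimated, so no counting interval is given for any FPKM.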

Other observations

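Cage C stood above the other cages for the motor of the microvillus core, in a comparison chosen after its values were seen. Myo1a ran from 289 through 324 to 370.1 FPKM in the 5 ascending libraries of cage C, against 164 to 239 in cage A and 219 to 262 in cage B, so cage C did not overlap with either. Over all genes, 0.131% had ascending values in cage C that lay above all of cages A and B. Espn reached 16.8 to 22.5 FPKM in cage C against 10.9 to 14.9 in cage A, with cage B between 12.4 and 21.5. In the descending colon Myo1a overlapped between all 3 cages (176 to 232, 187 to 248 and 167 to 424 FPKM). The mice of cage C also differ from the others in age and, from cage A, in strain label, and these cannot be told apart. Ascending goblet cell marker sums ran from 3609 to 6479 FPKM in cage C, 8783 to 12420 in cage A and 3111 to 11968 in cage B. The part of goblet cells in the values of cage C was not tested.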
